A study of Mus musculus with 22 samples.

Results

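Mouse cardiomyocytes at day 16 of differentiation (Cardiomyo1, Cardiomyo2 and Cardiomyo3) were compared with the embryonic stem cells (ESCs) they were derived from at day 0 (aMHC1, aMHC2 and aMHC3) for the levels of 72 H/ACA small nucleolar RNAs (snoRNAs). The samples were chosen by title and day, so the comparison uses 6 of the 22 samples in the series and all 72 measured features. The levels were read on a custom NanoString nCounter assay, in which colour-coded probes hybridised to total RNA are counted without amplification. The day 0 cells are labelled as aMHC-puro ESCs; cardiomyocytes were made from them by way of embryoid bodies and were selected with puromycin. The name aMHC is the usual short form of alpha myosin heavy chain, a gene active in heart muscle cells, but the labels neither spell it out nor describe the construct. No genotype, strain or clone is given beyond this line name, and whether the day 0 cells ever met puromycin is not stated. The assay holds snoRNAs only, so no marker of cardiomyocytes or stem cells could be set against the labels, and the purity of the selected cells could not be read from these data. In bulk RNA of this kind, fewer cells of a type and less RNA per cell cannot be told apart.

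H/ACA snoRNAs are short nuclear RNAs that fold into hairpins and, bound to the pseudouridine synthase dyskerin and its partner proteins, choose by base pairing which uridines of ribosomal RNA (rRNA) and spliceosomal RNA become pseudouridine. A few, such as the Snora73 RNAs, act in cutting the rRNA precursor instead of guiding a modification. In mammals most are not transcribed from their own promoter but are cut out of introns, so that a snoRNA is made together with its host transcript, often the mRNA of a ribosomal protein or a non-coding snoRNA host gene (Snhg). Dividing cells need a steady supply of new ribosomes, and heart muscle cells leave the cell cycle as they mature.

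Of the 72 features, 34 were paired with a snoRNA symbol and a host gene through the RefSeq table, and 38 are listed by an ENSMUST transcript ID that was not paired with a name here and are called by that ID. Many snoRNA host genes begin transcription at a run of pyrimidines (C and T). The start regions of 4 non-coding host genes are shown as examples. They hold 6 of the snoRNAs described in detail. Of these, 4 fell in cardiomyocytes (Snora16a and Snora44 in Snhg12, Snora24 in Snhg8 and Snora17 in Snhg7). The other 2 did not pass the test (Snora43 in Snhg7 and Snora73a in Snhg3). Each window runs from 50 bases before the annotated start to 50 after it on the strand of the gene (RefSeq, GRCm38.p6), with its longest unbroken run of C and T in capitals.
Snhg12 (chr4:132308628-132308727, plus strand): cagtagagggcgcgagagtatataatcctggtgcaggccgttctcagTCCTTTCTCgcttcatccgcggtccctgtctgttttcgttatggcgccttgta
Snhg8 (chr3:123508287-123508386, minus strand): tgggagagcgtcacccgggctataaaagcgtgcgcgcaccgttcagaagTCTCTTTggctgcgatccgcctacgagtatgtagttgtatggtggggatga
Snhg7 (chr2:26640195-26640294, minus strand): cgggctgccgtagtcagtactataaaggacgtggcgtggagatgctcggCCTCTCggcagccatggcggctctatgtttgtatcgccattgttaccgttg
Snhg3 (chr4:132353637-132353736, minus strand): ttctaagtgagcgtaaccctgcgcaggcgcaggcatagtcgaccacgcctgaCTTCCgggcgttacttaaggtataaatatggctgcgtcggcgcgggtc
The capitals mark 9 bases in Snhg12, 7 in Snhg8, 6 in Snhg7 and 5 in Snhg3. Dancr, the non-coding host of Snora26, is not shown. Its longest run was 10 bases and began 13 bases after the start. No window was taken for Snhg4, the host of Snora74a. A run of at least 7 C or T bases on the strand of the gene was found in 17 of 28 host genes with a window (60.7%) and in 16531 of 32851 start windows in the whole table (50.3%). These counts take a run anywhere in the window. Among the 17, it covered the annotated start only in Ipo7, Rpl27a, Rplp2, Snhg12 and Snhg8. In Rpl10 it began 40 bases after the start and in Rpsa 50 before it. For some host genes, such as Rps2 and Rps12, the window's start is not the first base of the gene.

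On the deposited scale, the 72 snoRNAs together gave a lower signal in cardiomyocytes. The total was 1317794, 1137064 and 1173855 normalized counts in Cardiomyo1, Cardiomyo2 and Cardiomyo3, against 1621106, 1580012 and 1496409 in aMHC1, aMHC2 and aMHC3. Every cardiomyocyte total lay below every ESC total, and the mean was 1209571 ± 95512 in cardiomyocytes and 1565842 ± 63545 in ESCs (SD, n = 3 each), a ratio of 0.772 (exact permutation test, two-sided p = 0.1, the smallest that 3 against 3 samples can give). In each sample the deposited values were multiples of a single step. In units of that step the totals were 1327413, 932203 and 1227250 in cardiomyocytes, against 1547009, 1334455 and 1313606 in ESCs. There Cardiomyo1 lay above aMHC3, so the groups overlapped. The table holds no reference RNA, so whether the total follows the snoRNA content of the cells or the unstated normalization was not tested. At totals of this size the number of samples limits the precision.

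The loss was spread over many features and the gain over few. Mean levels were lower in cardiomyocytes for 53 features, with a sum of -442670 normalized counts, and higher for 19, with a sum of 86398, which leaves a net difference of -356271. The 10 largest losses made up 57.2% of the summed loss, and the 3 largest gains 73.5% of the summed gain. Snora24 alone accounted for 10.1% of the loss, ENSMUST00000083274 for 9.26%, Snora16a for 6.96% and Snora44 for 6.71%. On the side of gains, ENSMUST00000082448 accounted for 37.7%, ENSMUST00000082579 for 27.2% and ENSMUST00000083703 for 8.62%.

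Fewer features carried the signal in cardiomyocytes. Features were ranked by their mean over the 6 samples. The most abundant, ENSMUST00000082448, held 14.5%, 17.3% and 14.6% of the total in the cardiomyocyte samples. It held 9.68%, 9.83% and 9.99% in the ESC samples, and in aMHC1 Snora73a held slightly more (9.71%). The 3 most abundant features together held 30.6 ± 2.13% in cardiomyocytes and 23.8 ± 0.554% in ESCs (SD, n = 3 each). The 10 most abundant held 53.8 ± 2.53% in cardiomyocytes and 49.6 ± 0.749% in ESCs. The effective number of features, the exponential of the Shannon entropy of the shares, was 31.2 ± 2.80 in cardiomyocytes and 37.0 ± 0.351 in ESCs. None of these measures overlapped between groups, and each reached the smallest exact p that the design allows, 0.1. With the 3 most abundant features taken out, the remaining total had a ratio of 0.705 (exact p = 0.1), so the other 69 features together lay further below their ESC level than the full total did.

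**Figure D1:**
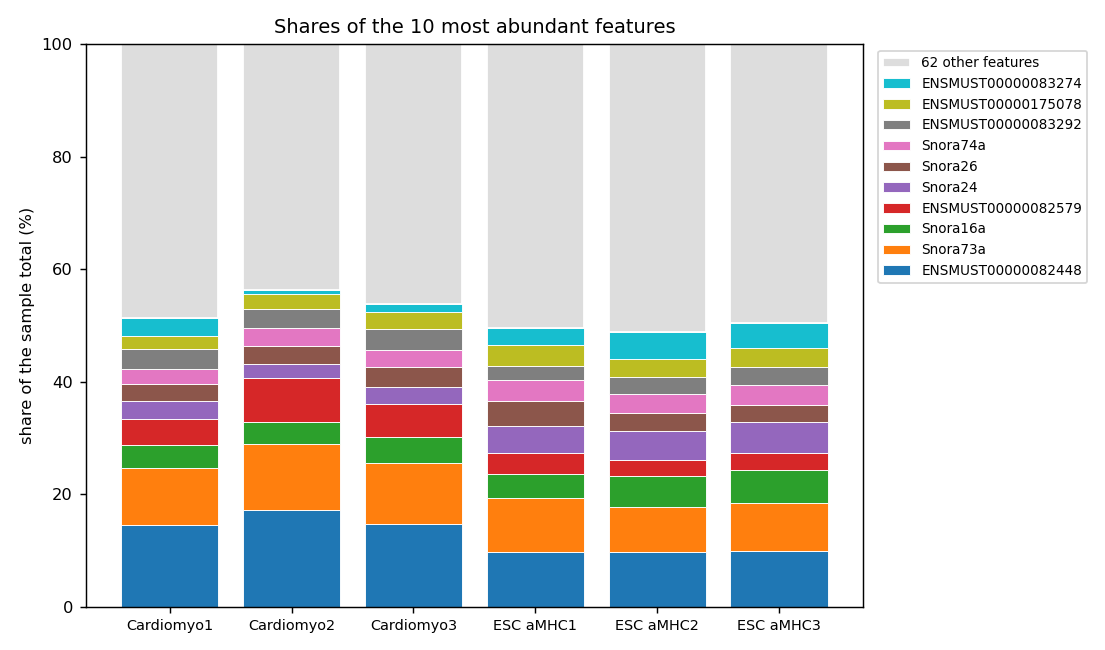
Share of the sample total (percent) held by each of the 10 most abundant features, stacked, and by the 62 other features together, in the 3 cardiomyocyte and the 3 ESC samples. The lowest block, ENSMUST00000082448, takes 14.5% to 17.3% of the signal in cardiomyocytes and 9.68% to 9.99% in ESCs.

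Most snoRNAs that differed were lower in cardiomyocytes. Of the 72 features, 54 had a log2 difference below 0 and 18 above, with a median of -0.51 and a range of -2.68 to 1.82. In limma 34 features (47.2%) had an unadjusted p under 0.05 and 22 (30.6%) passed an adjusted p of 0.05, of which 21 (29.2%) were lower in cardiomyocytes and 1 (1.39%), Snora47, was higher. All 3 cardiomyocyte samples lay below all 3 ESC samples for 33 features (45.8%), among them every one of the 21 that fell, and above them for 5 (6.94%). The number of calls changed with each sample left out. Without Cardiomyo3, aMHC1, aMHC2 or aMHC3 no feature passed in limma (30, 29, 23 and 21 at an unadjusted p under 0.05, in that order). By contrast, 7 passed without Cardiomyo2 and 34 without Cardiomyo1. Over these fits the median difference ran from -0.57 (without aMHC3) to -0.33 (without Cardiomyo2). Centring each sample on its median moved the median difference by 0.82 and gave 5 higher and 1 lower feature, and quantile normalization moved it by 0.46 and gave 3 higher and 0 lower in limma, with 17 past an unadjusted p of 0.05. Centring on the mean moved it by 0.49 and gave 0 calls, with 22 past an unadjusted p of 0.05.

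The words fell and rose therefore refer to the deposited scale. Of the 21 features that fell, 8 had a difference above 0 after median centring, namely Snora16a, Snora17, Snora31, Snora35, Snora62, Snora74a, ENSMUST00000083928 and ENSMUST00000175078. Snora62 also did so after quantile normalization. The other 13 stayed below 0 under all 3 scalings tried. The 7 calls kept without Cardiomyo2 were Snora15, Snora24, Snora34, ENSMUST00000083061, ENSMUST00000083171, ENSMUST00000083370 and ENSMUST00000104426. Some features that did not pass with all 6 samples did so without Cardiomyo1. They were Snora2b, Snora30, Snora43, Snora52, Snora64, Snora69, Snora75, ENSMUST00000083274, ENSMUST00000083703, ENSMUST00000083965, ENSMUST00000104203 and ENSMUST00000104376. Of these, Snora30, ENSMUST00000083703 and ENSMUST00000104203 were higher in cardiomyocytes and the others lower.

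**Figure D2:**
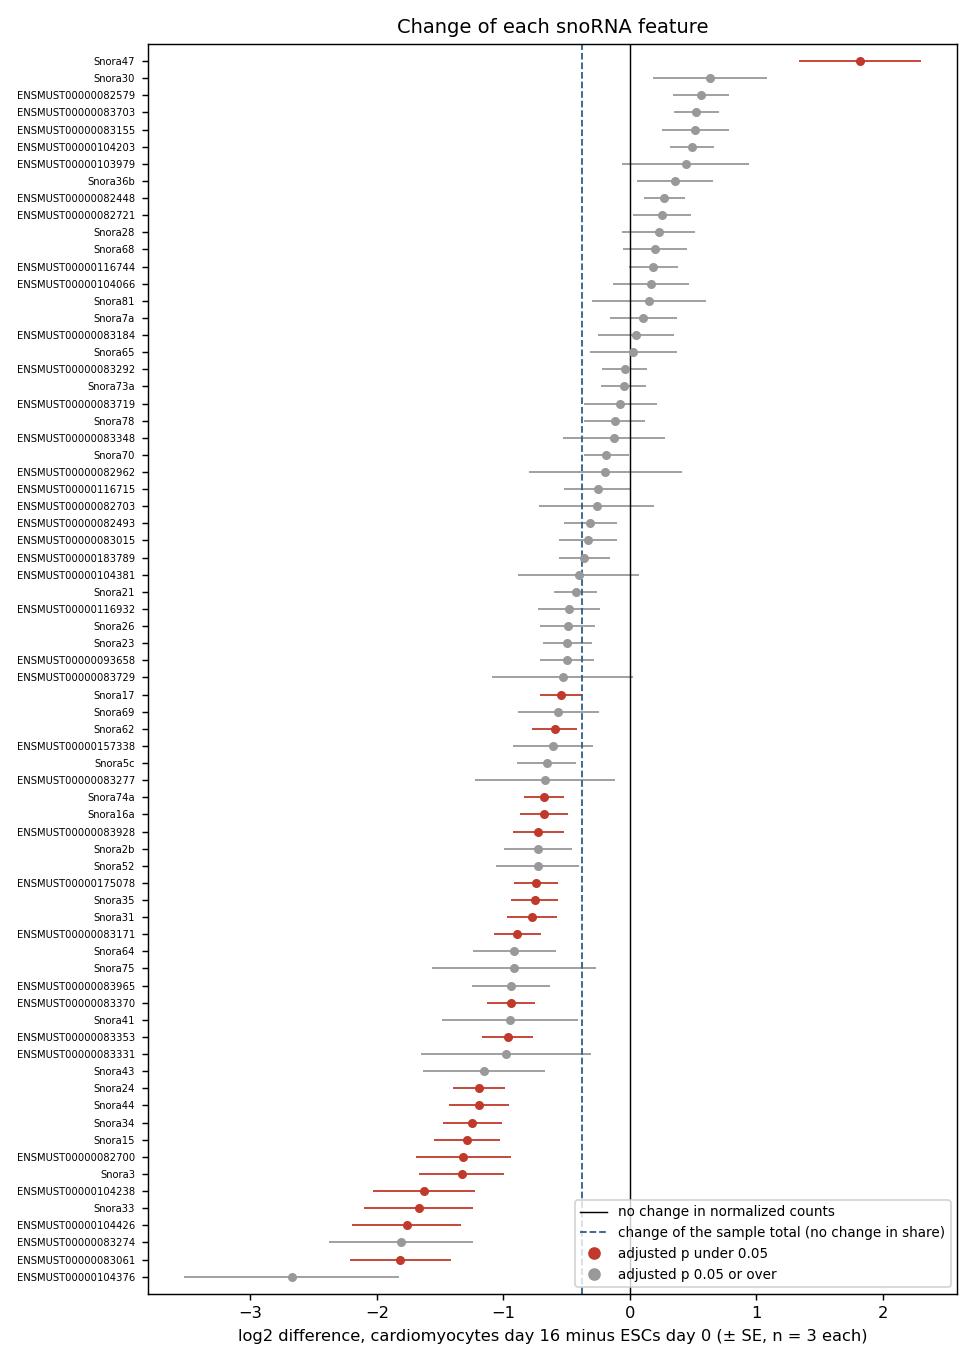
Log2 difference of all 72 features, cardiomyocytes minus ESCs, in order of size, with standard errors; features past an adjusted p of 0.05 are red, and the dashed line at -0.37 is the difference of the sample total. The differences run from -2.68 to 1.82, with 21 red points below 0, of which 8 lie above 0 after median centring, and 1 above.

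The 18S rRNA is the RNA of the small ribosomal subunit. Among its guides listed here as known in human, 3 of 7 fell and 0 rose, beside 29.2% of all 72 features that fell. Their median log2 difference was -0.95 (-0.13 after median centring, -0.45 after mean centring and -0.53 after quantile normalization). Over all 72 features it was -0.51 (0.30, -0.02 and -0.05 under the same scalings). Snora24 had 42672, 28040 and 36527 normalized counts in cardiomyocytes, against 79329, 81387 and 80493 in ESCs. Snora15 had 11049, 6235 and 10793 in cardiomyocytes, against 21811, 22143 and 22441 in ESCs. The ESC samples were nearly level with each other for both, Cardiomyo2 was the lowest sample, and every cardiomyocyte sample lay below every ESC sample. Snora24 was 2.28-fold lower in cardiomyocytes (log2 difference -1.19 ± 0.21 SE, limma adjusted p = 0.026) and Snora15 was 2.44-fold lower (-1.29 ± 0.26, adjusted p = 0.026). Snora44 had 25082, 19084 and 23430 in cardiomyocytes, against 67739, 44144 and 44823 in ESCs. It was 2.29-fold lower (-1.19 ± 0.24, adjusted p = 0.026), with aMHC1 standing above the other ESC samples.

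The other 18S guides in the list used here did not pass. Snora41 had 4372, 2927 and 1704 normalized counts in cardiomyocytes, against 11051, 4275 and 3302 in ESCs (log2 difference -0.95, limma adjusted p = 0.211), and its groups overlapped. Snora70, in an intron of Rpl10, had 24790, 30044 and 31464 in cardiomyocytes, against 30258, 33233 and 34332 in ESCs (-0.19, adjusted p = 0.456). Snora28 had 27751, 50224 and 34204 in cardiomyocytes, against 23982, 35612 and 34718 in ESCs (0.23, adjusted p = 0.552). Snora36b, of low level, had 286, 548 and 328 in cardiomyocytes, against 233, 347 and 302 in ESCs (0.36, adjusted p = 0.390). Cardiomyo2 was the lowest cardiomyocyte sample in none of these 4. In sum the 18S guides held 11.4 ± 0.936% of the signal in cardiomyocytes and 14.4 ± 0.371% in ESCs (SD, n = 3 each).

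The 28S rRNA is the large RNA of the large subunit. Some named snoRNAs, such as Snora31, were in neither rRNA list, so both lists may be incomplete. Among the 28S guides listed here as known in human, 5 of 17 fell and 0 rose. That share lay near the 29.2% of all 72 features that fell. The median of the 17 was -0.68 (0.14 after median centring, -0.18 after mean centring and -0.12 after quantile normalization). The largest difference was that of Snora33, with 12124.5, 3907 and 6582 normalized counts in cardiomyocytes, against 28899, 19584 and 17770 in ESCs. It was 3.18-fold lower in cardiomyocytes (log2 difference -1.67 ± 0.43, limma adjusted p = 0.033). Snora3 had 9928, 6829 and 6291 in cardiomyocytes, against 29535, 15637 and 14654 in ESCs, and was 2.51-fold lower (-1.33 ± 0.34, adjusted p = 0.032). In both, aMHC1 was well above the other ESC samples and Cardiomyo1 above the other cardiomyocyte samples, without overlap between the groups. Snora34 had 5895, 4805 and 3902 in cardiomyocytes, against 13950, 10509 and 10022 in ESCs, and was 2.37-fold lower (-1.24 ± 0.23, adjusted p = 0.026).

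Smaller falls were seen for 2 abundant 28S guides. Snora74a had 33689, 35788 and 36438 normalized counts in cardiomyocytes, against 59897, 55741 and 53747 in ESCs, a 1.60-fold lower level (log2 difference -0.68 ± 0.16, limma adjusted p = 0.032). Snora17 had 22271, 21101 and 24480 in cardiomyocytes, against 35152, 31402 and 32146 in ESCs (-0.54 ± 0.17, adjusted p = 0.049). Both were tight within each group, and both lay above 0 after median centring.

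Several 28S guides gave values that scattered more than the groups differed. Snora75, in an intron of the nucleolin gene Ncl, had 16952, 2840 and 5640 normalized counts in cardiomyocytes, against 9121, 18060 and 11101 in ESCs (log2 difference -0.92, limma adjusted p = 0.300). Snora81 had 64776, 34501 and 28317 in cardiomyocytes, against 23507, 61065 and 32295 in ESCs (0.15, adjusted p = 0.823). Snora30 had 3185, 9368 and 9047 in cardiomyocytes, against 5313, 3609 and 3746 in ESCs (0.64 ± 0.45, adjusted p = 0.300). In Snora30, Cardiomyo1 lay below all ESC samples while Cardiomyo2 and Cardiomyo3 lay above them. Snora68 had 18073, 27769 and 29829 in cardiomyocytes, against 25566, 19057 and 20271 in ESCs, and showed the same pattern (0.20, adjusted p = 0.552). Without Cardiomyo1, Snora75 passed in limma as lower and Snora30 as higher.

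Snora73a, which acts in processing of the rRNA precursor and not as a modification guide, was the second most abundant feature. It had 133185, 132112 and 128105 normalized counts in cardiomyocytes, against 157404, 124611 and 127285 in ESCs. The cardiomyocyte values lay inside the ESC range (log2 difference -0.05 ± 0.18, limma adjusted p = 0.834). Snora69, known in human as a guide of the smaller rRNA that pairs with 28S, had 14004, 9671 and 6461 in cardiomyocytes, against 11955, 17296 and 13703 in ESCs (-0.56 ± 0.32, adjusted p = 0.211), and its groups overlapped.

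Snora47, in an intron of the zinc finger gene Zbed3, was the only feature that rose in limma on the deposited scale. It had 375, 1343 and 1113 normalized counts in cardiomyocytes, against 268, 206 and 229 in ESCs. All cardiomyocyte samples lay above the ESC samples, but Cardiomyo1 only by a small margin, and the SD within cardiomyocytes was 0.99 on the log2 scale against 0.19 in ESCs. The level was 3.53-fold higher in cardiomyocytes (log2 difference 1.82 ± 0.48, limma adjusted p = 0.034), and the difference was 1.82 to 2.64 under the 3 other scalings. Of these scalings, only median centring let Snora47 pass. It passed in 1 of the 6 fits that left out a sample, the fit without Cardiomyo1. With the sample number as a block it did not pass (limma adjusted p = 0.061). It was a rare snoRNA in both groups, with a mean of 0.0805% of the signal in cardiomyocytes and 0.0150% in ESCs.

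**Figure D3:**
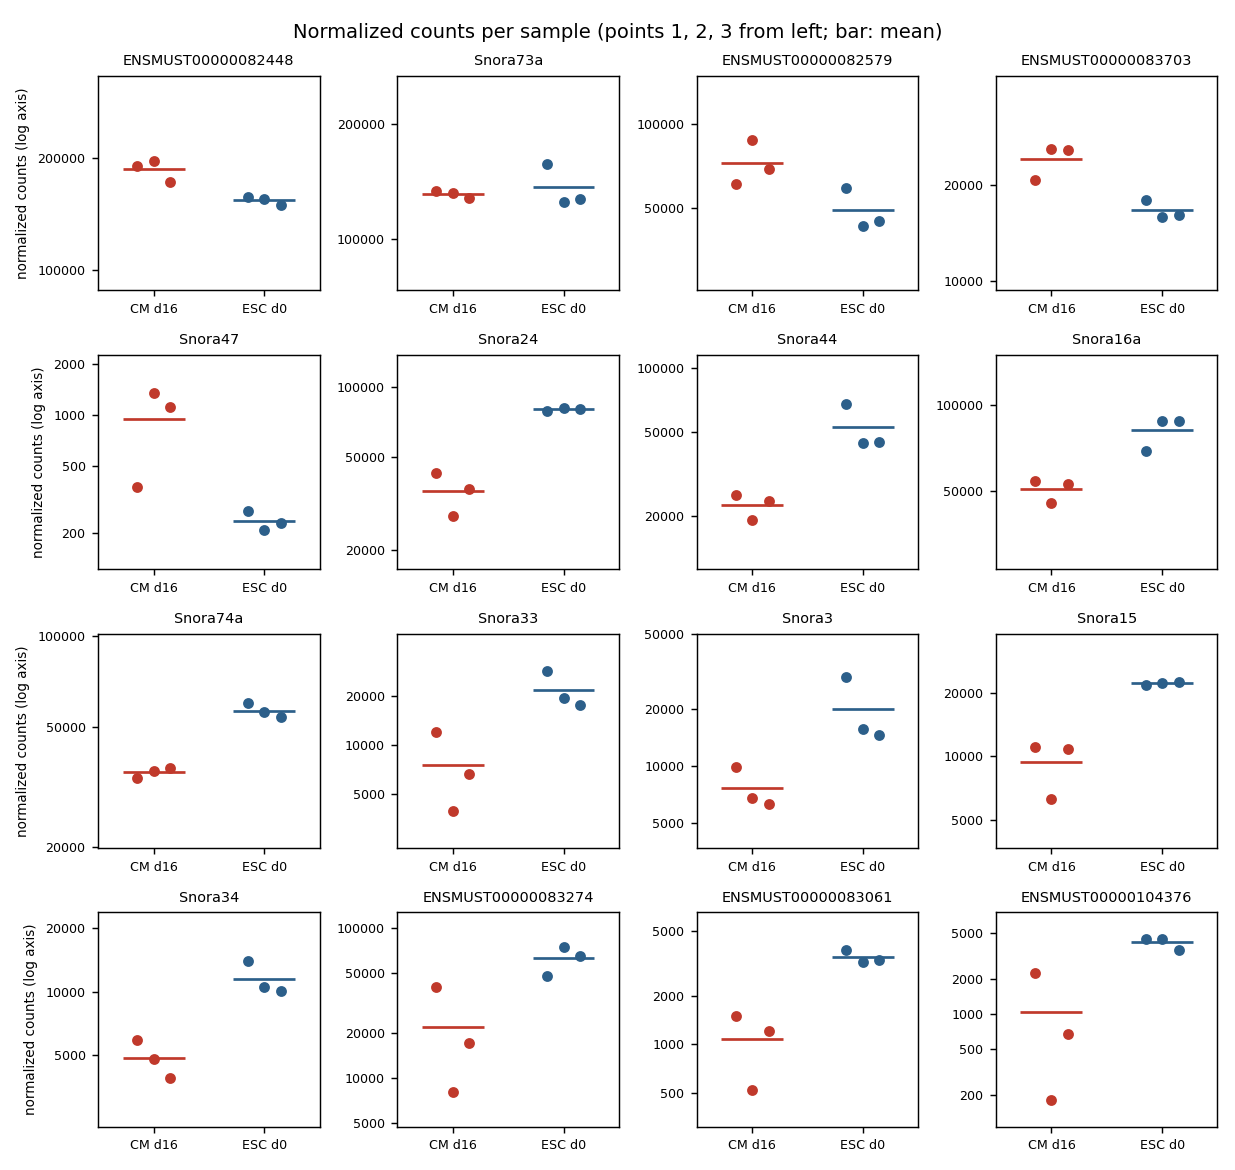
Normalized counts (log axis) of the described snoRNAs in each sample, cardiomyocytes left of ESCs, with the mean of each group. For Snora24 and Snora15 the groups stand apart with the ESC samples close together, while Snora73a overlaps and Snora47 is above the ESC samples in all 3 cardiomyocyte samples.

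The host gene classes are set beside the 29.2% of all 72 features that fell and their median of -0.51. Of 8 snoRNAs in non-coding host genes, 5 fell (Snora16a, Snora17, Snora24, Snora44 and Snora74a), all 8 differences were below 0 and their median was -0.68, while 5 of the 8 were above 0 after median centring (median 0.14), 2 after mean centring (median -0.18) and 0 after quantile normalization (median -0.20). Together they held 28.7 ± 1.23% of the signal in cardiomyocytes and 32.7 ± 1.77% in ESCs. Of 11 in ribosomal protein genes, 3 fell (Snora3 in Rpl27a, Snora33 in Rps12 and Snora62 in Rpsa), with a median of -0.56 (0.25 after median centring, -0.07 after mean centring and 0.16 after quantile normalization). Of 4 in genes of translation factors and Tpt1, 1 fell (Snora31 in Tpt1, -0.77, limma adjusted p = 0.033), with a median of -0.31, which was above 0 under all 3 other scalings (0.18 to 0.50). Of 10 in other protein-coding genes, 3 fell and 1 rose, with a median of -0.69 (0.13 after median centring, -0.20 after mean centring and -0.22 after quantile normalization). These falls were Snora15 in the chaperonin gene Cct6a, Snora34 in Kansl2 and the rare Snora35 in the serotonin receptor gene Htr2c. In the 3 protein-coding classes the share that fell lay near that of all features. Host transcripts themselves were not measured.

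In 4 pairs, 2 measured snoRNAs lie within the same gene by position, which took no account of strand. Where both lie on the strand of the gene, they can be cut from 1 transcript. The ratio of a pair within a sample does not depend on how the sample was scaled. In Snhg12, Snora16a had 54314, 45589 and 53147 normalized counts in cardiomyocytes, against 69234, 88160 and 88096 in ESCs, and fell 1.60-fold (log2 difference -0.68 ± 0.19, limma adjusted p = 0.038). Its neighbour Snora44 fell 2.29-fold, as given above. The log2 ratio of Snora44 to Snora16a was -1.11, -1.26 and -1.18 in cardiomyocytes, against -0.03, -0.998 and -0.97 in ESCs. The groups did not overlap, and the mean difference was -0.52 (exact p = 0.1, adjusted over 4 pairs 0.2), or -0.20 without aMHC1.

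In Kansl2, Snora34 fell while Snora2b had 4589, 3292 and 2606 normalized counts in cardiomyocytes, against 4566, 6518 and 5958 in ESCs (log2 difference -0.72, limma adjusted p = 0.080). Their log2 ratio was 0.36, 0.55 and 0.58 in cardiomyocytes, against 1.61, 0.69 and 0.75 in ESCs (difference -0.52, exact p = 0.1, adjusted 0.2), or -0.22 without aMHC1, again the sample apart. In Snhg7, Snora43 had 12592, 3423 and 8986 in cardiomyocytes, against 19617, 14427 and 15040 in ESCs, and did not pass (-1.15, adjusted p = 0.106). Its log2 ratio to Snora17 was -0.82, -2.62 and -1.45 in cardiomyocytes, against -0.84, -1.12 and -1.10 in ESCs (difference -0.61, exact p = 0.4, adjusted 0.4), or -0.11 without Cardiomyo2. In Rps2, Snora64 had 14371, 6887 and 6576 in cardiomyocytes, against 16059, 16637 and 16224 in ESCs (-0.91, adjusted p = 0.070). Snora78 had 3552, 2866 and 3678 in cardiomyocytes, against 4887, 3057 and 3219 in ESCs (-0.12, adjusted p = 0.729). Its position also falls within Snhg9, which lies on the opposite strand to Rps2. The strand of Snora78 was not checked, so it may not share a transcript with Snora64. The log2 ratio of Snora64 to Snora78 was 2.02, 1.26 and 0.84 in cardiomyocytes, against 1.72, 2.44 and 2.33 in ESCs (difference -0.79, exact p = 0.2, adjusted 0.267), or -0.52 without Cardiomyo3. No pair passed after adjustment, and 3 against 3 samples could not have done so.

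**Figure D4:**
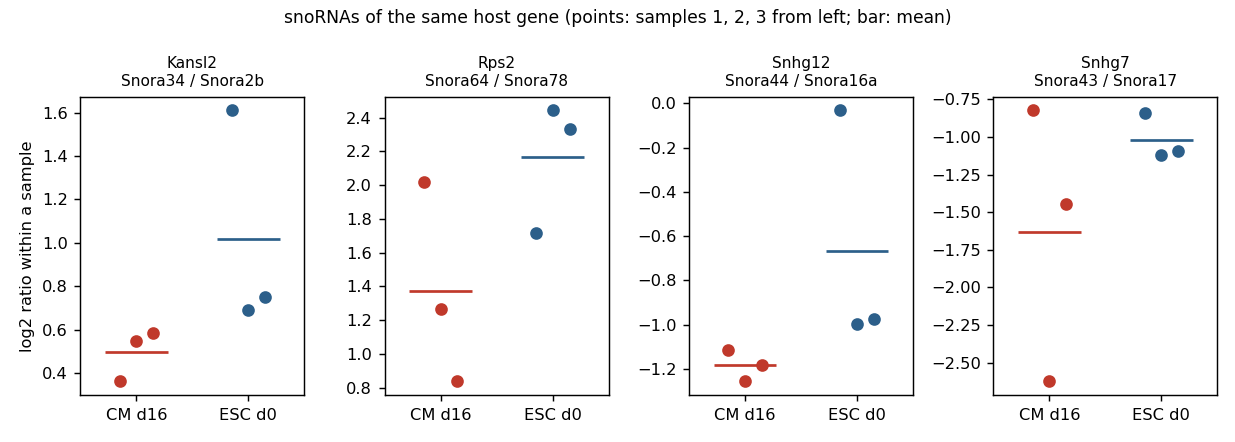
Log2 ratio of 2 snoRNAs that lie within the same gene by position in each sample, cardiomyocytes left of ESCs, for 4 genes. Snora78, paired with Snora64 in Rps2, also lies within Snhg9 on the opposite strand. The mean ratio is lower in cardiomyocytes, with differences of -0.79 to -0.52, with aMHC1 apart from the other ESC samples in Snhg12 and Kansl2 and with overlap in Rps2 and Snhg7.

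Among the 10 most abundant features, 4 fell (Snora24, Snora16a, Snora74a and ENSMUST00000175078) and 0 rose, beside 29.2% of all 72 features that fell. Their median log2 difference was -0.58 (0.23 after median centring, -0.09 after mean centring and -0.14 after quantile normalization). The most abundant, ENSMUST00000082448, had 191011, 196362 and 171906 normalized counts in cardiomyocytes, against 156923, 155250 and 149461 in ESCs. All cardiomyocyte samples lay above all ESC samples, but the difference did not pass (log2 difference 0.27 ± 0.16, limma adjusted p = 0.220). ENSMUST00000082579 had 61197, 87563 and 69023 in cardiomyocytes, against 59019, 43205 and 44943 in ESCs (0.56 ± 0.22, adjusted p = 0.092), again without overlap although Cardiomyo1 and aMHC1 were close. Snora26, in the non-coding gene Dancr, had 39795, 37599 and 41159 in cardiomyocytes, against 72006, 50452 and 46937 in ESCs (-0.49 ± 0.22, adjusted p = 0.121). ENSMUST00000083292 had 47894, 38754 and 43592 in cardiomyocytes, against 40414, 46980 and 46245 in ESCs, and its groups overlapped (-0.04, adjusted p = 0.854).

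Among the 38 features listed by ENSMUST ID, 9 fell and 0 rose, beside 29.2% of all 72 features that fell, with a median of -0.38, which was above 0 under all 3 other scalings (0.06 to 0.43). Among the 34 with a symbol, 12 fell and 1 rose, with a median of -0.62 (0.19 after median centring, -0.13 after mean centring and -0.11 after quantile normalization). In sum the ENSMUST features held 48.0 ± 0.792% of the signal in cardiomyocytes and 43.7 ± 1.12% in ESCs (SD, n = 3 each). The largest difference of any feature was that of ENSMUST00000104376, with 2281, 179 and 671 normalized counts in cardiomyocytes, against 4476, 4477 and 3596 in ESCs. All cardiomyocyte samples lay below the ESC samples, but they differed so much from each other that it did not pass (log2 difference -2.68 ± 0.85, limma adjusted p = 0.053). The difference was -3.58 without Cardiomyo1 (adjusted p = 0.00858) and -1.75 without Cardiomyo2 (adjusted p = 0.081). ENSMUST00000083274, among the 10 most abundant, had 40405, 7960 and 16949 in cardiomyocytes, against 47857, 75071 and 65365 in ESCs (-1.81 ± 0.57, adjusted p = 0.053), or a difference of -2.41 without Cardiomyo1 (adjusted p = 0.00858). In both, Cardiomyo1 was nearest to the ESC samples and Cardiomyo2 farthest.

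The 3 ENSMUST features with the largest falls past the threshold ran in the same order of samples. ENSMUST00000083061 had 1505, 523 and 1205 normalized counts in cardiomyocytes, against 3854, 3221 and 3330 in ESCs (log2 difference -1.81 ± 0.40, limma adjusted p = 0.029). ENSMUST00000104426 had 1027, 327 and 818 in cardiomyocytes, against 2459, 2252 and 1955 in ESCs (-1.77 ± 0.43, adjusted p = 0.032). ENSMUST00000104238 had 10780, 3586 and 5528 in cardiomyocytes, against 16489, 21287 and 17912 in ESCs (-1.63 ± 0.40, adjusted p = 0.032). In each, Cardiomyo2 was lowest and Cardiomyo1 highest of the cardiomyocyte samples, below all ESC samples.

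The other 6 that fell were of middle or high level. ENSMUST00000082700 had 15892, 6049 and 7388 normalized counts in cardiomyocytes, against 19724, 25197 and 22107 in ESCs (log2 difference -1.32 ± 0.38, limma adjusted p = 0.040). ENSMUST00000083353 had 4282, 3127 and 3203 in cardiomyocytes, against 7711, 6565 and 6309 in ESCs (-0.97 ± 0.20, adjusted p = 0.026). ENSMUST00000175078 had 31255, 30622 and 35466 in cardiomyocytes, against 61239, 50914 and 50760 in ESCs (-0.74 ± 0.18, adjusted p = 0.032). The groups did not overlap in any of these. ENSMUST00000083370, ENSMUST00000083171 and ENSMUST00000083928 had log2 differences of -0.94, -0.89 and -0.72, and all their cardiomyocyte values lay below their ESC values.

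On the side of higher values, 4 ENSMUST features had no overlap between groups and none passed the test in limma. ENSMUST00000083703 had 20753, 25903 and 25763 normalized counts in cardiomyocytes, against 17939, 15944 and 16197 in ESCs (log2 difference 0.53 ± 0.18, adjusted p = 0.065). ENSMUST00000104203 had 1516, 1859 and 1870 in cardiomyocytes, against 1222, 1247 and 1243 in ESCs (0.49 ± 0.17, adjusted p = 0.070). The other 2 were ENSMUST00000082448 and ENSMUST00000082579, the most abundant of the ENSMUST features. ENSMUST00000083155 had 3635, 4230 and 2301 in cardiomyocytes, against 2166, 2549 and 2176 in ESCs (0.52, adjusted p = 0.177), and Cardiomyo3 lay inside the ESC range.

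As shares of each sample's total, the features gave a more even split. Because the total was lower in cardiomyocytes, every log2 difference of a share is that of the level plus 0.37. In shares, 42 features were below 0 and 30 above, with a median of -0.14 and a range of -2.30 to 2.19. In limma 0 features (0%) passed an adjusted p of 0.05, although 23 (31.9%) had an unadjusted p under 0.05 and the lowest adjusted p was 0.0562. All cardiomyocyte shares lay below all ESC shares for 18 features (25%) and above them for 10 (13.9%), 38.9% in all, and of the 21 features that fell on the deposited scale, 17 had all cardiomyocyte shares below all ESC shares. Without Cardiomyo1, 23 features passed in shares, 9 of them higher and 14 lower. With all 6 samples kept, 6 passed with an intensity trend, 29 with sample weights and 33 of 67 with all 7 groups in 1 fit.

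The largest share in cardiomyocytes was that of ENSMUST00000082448, a mean of 15.5%, against 9.83% in ESCs (share log2 difference 0.65 ± 0.18, limma adjusted p = 0.056). Snora73a held 10.9% in cardiomyocytes and 8.70% in ESCs, although its level overlapped between the groups. ENSMUST00000082579 held 6.07% in cardiomyocytes and 3.13% in ESCs (0.94, adjusted p = 0.056). Snora24 held 2.94% in cardiomyocytes and 5.14% in ESCs (-0.82, adjusted p = 0.056). Snora44 held 1.86% in cardiomyocytes and 3.32% in ESCs, and Snora15 held 0.769% in cardiomyocytes and 1.42% in ESCs (-0.91, adjusted p = 0.056). Snora16a, which fell on the deposited scale, held 4.22% in cardiomyocytes and 5.25% in ESCs (-0.30, adjusted p = 0.310).

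The cardiomyocyte samples were less alike than the ESC samples. The median SD of a feature on the log2 scale was 0.38 in cardiomyocytes and 0.21 in ESCs, and it exceeded 1 for 7 features in cardiomyocytes and for 0 in ESCs. Against the ESC mean, 5 features in Cardiomyo1, 26 in Cardiomyo2 and 19 in Cardiomyo3 were lower by more than 1 on the log2 scale. Over all 72 features Cardiomyo1 was the highest cardiomyocyte sample in 38 and Cardiomyo2 the lowest in 36, and among the 21 that fell these counts were 15 and 17. The widest spread after ENSMUST00000104376 was that of ENSMUST00000083331, with 12414, 1742 and 6183 normalized counts in cardiomyocytes, against 8834, 11362 and 10172 in ESCs (log2 difference -0.98, limma adjusted p = 0.296). ENSMUST00000083729 had 26302, 5555 and 11254 in cardiomyocytes, against 12896, 22142 and 17355 in ESCs (-0.53, adjusted p = 0.484). In both, Cardiomyo1 lay above all ESC samples and Cardiomyo2 below them. Whether the differentiated cultures or the handling of the RNA differed between these samples was not tested.

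**Figure D5:**
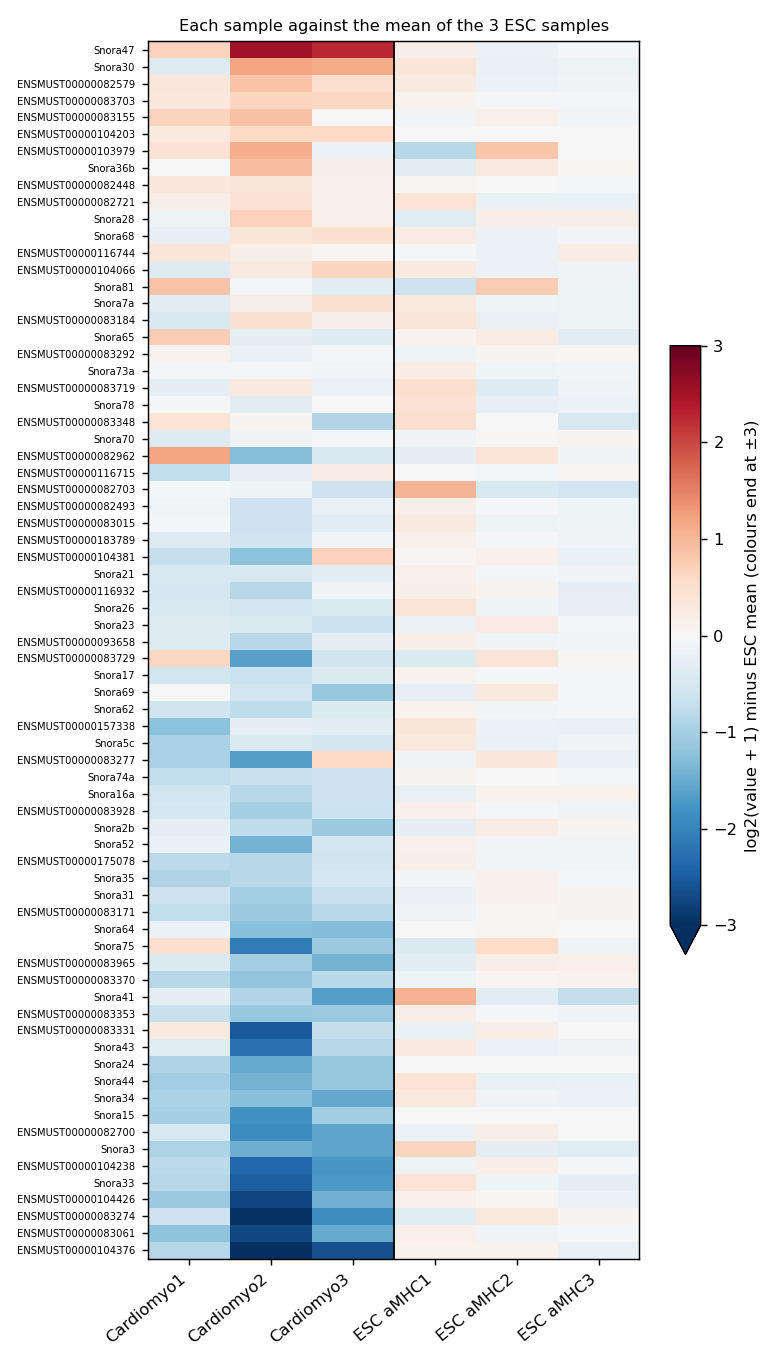
Log2 difference from the ESC mean for the 72 features in each of the 6 samples, cardiomyocytes left of ESCs. Cardiomyo2 has 26 features lower by more than 1 and Cardiomyo3 has 19, against 5 in Cardiomyo1.

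The 6 rarest features, with a mean under 100 normalized counts, ran from 15.9 to 101 in cardiomyocytes and from 18.9 to 121 in ESCs. Of these, 1 fell, Snora35, with 19.9, 20.7 and 25.8 in cardiomyocytes, against 35.6, 41.4 and 36.5 in ESCs (log2 difference -0.75 ± 0.18, limma adjusted p = 0.032). The groups did not overlap, but no background level of the assay was at hand, and the difference was above 0 after median centring.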

How the data were processed

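The authors deposited 1 table of 72 features in 22 samples, and only its columns were used. The values are a signal, here called normalized counts, on the scale the authors deposited. Per the labels' protocols RNA was extracted with Trizol and purified on columns. How the signal was normalized, which software was used and how background was treated are not given in the sources used here. In every sample, each deposited signal value was a multiple of a single step for that sample, to a tolerance of 0.02. Gene symbols and host genes came from the RefSeq table of assembly GRCm38.p6, which matched 34 features. Host genes were assigned by position, without regard to strand.

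Differences are on the log2(value + 1) scale. limma 3.58.1 in R 4.3.3 (lmFit and eBayes, two-sided, Benjamini-Hochberg over all 72 features, threshold 0.05) was fitted to the 3 cardiomyocyte and 3 ESC samples, once on the values and once on shares, that is, after subtracting log2 of the sample total. The procedure was tested on simulated data with a single spread for all features and both groups. That simulation does not cover the wider spread of the cardiomyocyte samples. Totals, shares of several features and ratios were compared by exact permutation tests over samples (SciPy 1.17.1), which cannot go below 0.1 with 3 against 3. No label says that replicates came from separate cultures, so every p-value rests on sample-to-sample spread that may be technical. Features named in the text are the 10 most abundant, the 12 largest changes past the threshold, the 3 most abundant, 3 highest and 3 lowest features listed by ENSMUST ID, snoRNAs that share a host gene and 5 fixed snoRNAs (no feature passed in shares); any other is named because of its values. Members, lists and rules were chosen with earlier results of these data known. Planned count-model alternatives were not run because the unit of the table is not a count.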

Additional observations from a re-analysis of the deposited data

How the results depend on the processing

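With 3 samples a group, the number of features past the threshold depended on most choices. On the deposited scale the reported count was 1 higher and 21 lower. A pseudocount of 10 and a minimum mean of 100 changed neither direction nor call of the 31 named features. An intensity trend gave 3 higher and 22 lower, sample weights 5 and 29, and all 7 groups in 1 fit 4 and 34. Leaving out 1 sample gave 0 to 4 higher and 0 to 30 lower. Median centring gave 5 higher and 1 lower, mean centring 0 and 0, and quantile normalization 3 and 0. In shares, where the reported count was 0, an intensity trend gave 4 higher and 2 lower, sample weights 11 and 18, all 7 groups 13 and 20, and leaving out 1 sample 0 to 9 higher and 0 to 14 lower. The log2 difference of the total was -0.37, and -0.51 without the 3 most abundant features.

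The deviations of samples with the same number had correlations of -0.26, -0.25 and 0.30 over 66 features. With 3 samples a group, these values cannot decide whether the numbers mark pairs. The main fit did not take them as pairs. With the number as a replicate block, 0 features were higher and 8 lower in limma, with 26 at an unadjusted p under 0.05, and 0 passed in shares, with 20.

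Signs turned for these named features. Median centring gave 0.0754 for ENSMUST00000175078, 0.14 for Snora16a and for Snora74a, 0.27 for Snora17, 0.78 for ENSMUST00000083292, 0.33 for Snora26, 0.0922 for Snora2b, 0.25 for Snora69, 0.77 for Snora73a and 0.70 for Snora78. Mean centring gave 0.46 for ENSMUST00000083292, 0.0047 for Snora26, 0.45 for Snora73a and 0.37 for Snora78. Quantile normalization gave 0.46 for ENSMUST00000083292, 0.30 for Snora69 and 0.26 for Snora78. Sample weights gave 0.0173 for Snora73a, 0.10 for Snora78 and 0.0527 for the share of Snora26, which was 0.0199 without the 3 most abundant features. Over the leave-one-out fits, Snora73a ran from -0.11 to 0.0581, Snora78 from -0.25 to 0.0928 and ENSMUST00000083292 from -0.11 to 0.0399, and the shares of Snora26 from -0.20 to 0.0478 and of Snora69 from -0.40 to 0.0724. The causes were not tested. The planned edgeR and DESeq2 alternatives were not run, since the table holds a signal and not counts.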
